A study of Caenorhabditis elegans with 21 samples.

Results

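The genes described here encode the proteins of the cytosolic ribosome. They were taken as all genes of the WBcel235 annotation whose symbol starts with rpl- (large subunit) or rps- (small subunit), which gave 78 genes, 47 rpl- and 31 rps-, of 46891 genes in the embryo count tables and of 18887 genes listed above 0 in the RIP-seq files. Ribosomes are built from rRNA and about equal amounts of each of these proteins, so that their mRNAs are among the most abundant of a growing cell, and most of them come from a single gene per protein. In the worm germline, the arrested oocyte is loaded with ribosomes and mRNAs for the embryo, which starts development before its own genome is broadly transcribed. OMA-1 is a zinc-finger protein of growing oocytes that binds the 3′UTRs of maternal mRNAs, represses their translation, and is degraded when the first embryonic division begins.

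The study sequenced RNA bound to OMA-1 in young adults (RNA immunoprecipitation, RIP) and mRNA of early embryos, to ask how FZY-1, an activator of the anaphase-promoting complex, acts together with OMA-1. RIP and matched input RNA, 2 libraries of each per strain, came from 3 strains in which gfp is inserted at the oma-1 locus itself, so that beads that bind GFP pull down OMA-1. One strain is oma-1::gfp, with the wild-type protein. Another, oma-1(P240L)::gfp, carries the amino-acid change of the zu405 allele and is called the P240L strain here. In the last, fzy-1(D433N);oma-1(P240L)::gfp, a change in FZY-1 is added, and it is called the fzy-1 P240L strain. Embryo mRNA came from N2, the wild type (libraries A1 and A2), from oma-1(zu405), a gain-of-function allele with P240L that leaves too much OMA-1 in the embryo (C1 and C2), and from fzy-1(D433N);oma-1(zu405), the double mutant in which the lethality of zu405 is relieved (D1 and D3). Worms of all groups, tagged strains included, were grown at 25 °C. Embryos were bleached out of synchronized adults and are a mixture of early stages, and each RIP library came from 100000 whole adults, soma included. Each group is 1 strain, a pull-down from worms without the tag was not analysed here, and the sources do not say whether libraries came from separate cultures, so that p-values measure the spread between these libraries only.

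In the annotation, the 78 genes were short and simple. Their coding sequences had a median of 444 bases, from 66 to 1203, against 987 bases over 19985 protein-coding genes. Their annotated 3′UTRs, the part of an mRNA to which OMA-1 binds, had a median of 56.5 bases over the 76 genes that have one, from 28 to 240, against 131 bases over 16805 genes. The median number of introns was 2, against 4 over all protein-coding genes. Only 2 genes lay on the X chromosome, rpl-11.2 and rpl-25.1, which is 2.56% of the members against 13.7% of protein-coding genes, and each has a paralog on an autosome. In the gene classes that the authors copied from published lists into their table, 66 of 78 were called gender neutral, that is, expressed alike in germlines making oocytes or sperm, against 23.9% of 21034 genes, and 0 were called oogenic, against 6.97%. An annotated snoRNA gene overlapped 13 of the 78 genes, 14 shared exon bases with another gene, and 52 overlapped no other gene.

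The embryo libraries held 3599426 to 18815357 counts. Among them D1 stood apart: 17.5% of its counts fell on its 10 most abundant genes, against 2.97% to 7.54% in the other 5 libraries, and 5.98% fell on rRNA genes, against 0.0525% to 1.04%. Because D1 and D3 are the only libraries of the double mutant, each result on that genotype is given with and without D1. The RIP and input libraries held roughly 6238598 to 17452760 reads, an estimate from the steps between their low values. Since zu405 and D433N change single amino acids, the levels of oma-1 and fzy-1 do not check the labels. Oocyte markers were present in every library, with none of 12 at 0, and their summed levels are given with the results they move with.

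In adults, the ribosomal protein mRNAs made up a large part of the input RNA and a small part of the RNA that came down with OMA-1. Of the summed RPKM (read counts scaled by gene length and library depth) in the oma-1::gfp inputs, 13.5% and 12.3% belonged to the members, and in the RIP libraries 2.61% and 1.94%. The inputs of the P240L strain gave 10.9% and 9.32% and its RIP libraries 3.08% and 2.26%. In the fzy-1 P240L strain the inputs gave 11.2% and 9.81% and the RIP libraries 2.50% and 1.70%. Every RIP library thus lay below every input. By mean RPKM in the oma-1::gfp inputs, the most abundant were rps-25 at 1759 RPKM, rpl-36 at 1479 RPKM and rpl-43 at 1376 RPKM, a small-subunit protein and a pair of small proteins of the large subunit. The lowest above 0 were rps-29 at 33.3 RPKM, rpl-25.1 at 38.9 RPKM and rpl-11.2 at 61.0 RPKM.

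The comparison of RIP with input asked which mRNAs OMA-1 carries, and nearly all ribosomal protein mRNAs were lower in the precipitate. In oma-1::gfp 75 of the 78 genes passed the filter of 1 RPKM in 2 libraries, and 74 of them were lower at an adjusted p under 0.05 in limma, where 27.7% of the 9743 genes tested were called lower. All 74 were also past a log2 ratio of −1, against 19.4% of all genes, and 0 members were called higher, where 11.8% of all genes were. The median log2 ratio of the members was −2.69, from −3.84 to 0.25, against a median of −0.37 over all genes tested. For 74 members the groups did not overlap, both RIP libraries lying under both inputs, as they did for 51.2% of all genes. The lowest 10% of all genes, with a log2 ratio under −1.31, held 74 of the 75 members tested, and 41 of the 100 genes with the lowest log2 ratios were members.

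Nearly all members were lower in the other strains as well, each with its own inputs. In the P240L strain 74 of 75 members tested were called lower by limma, where 39.0% of all genes were, and 73 of them past −1, where 21.2% were, while 0 were called higher, where 15.4% were. Their median log2 ratio was −2.50, from −4.10 to −0.03, against −0.34 over all 9761 genes. In the fzy-1 P240L strain 74 of 76 were called lower, where 28.2% of all genes were, and all 74 were past −1, where 21.0% were, and 0 were higher, where 11.2% were. The median there was −2.51, from −3.42 to 0.67, against −0.41 over all 10849 genes. In each of these strains 74 members had both RIP libraries below both inputs, against 54.2% and 51.7% of all genes. The lowest 10% of all genes held 71 members in the P240L strain and 73 in the fzy-1 P240L strain. Of the 100 genes with the lowest log2 ratios, 22 and 26 were members, fewer than the 41 in oma-1::gfp. The subunits behaved alike: the median log2 ratio of the rpl- and rps- genes was −2.68 and −2.69 in oma-1::gfp, −2.58 and −2.31 in the P240L strain, and −2.50 and −2.55 in the fzy-1 P240L strain.

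**Figure D1:**
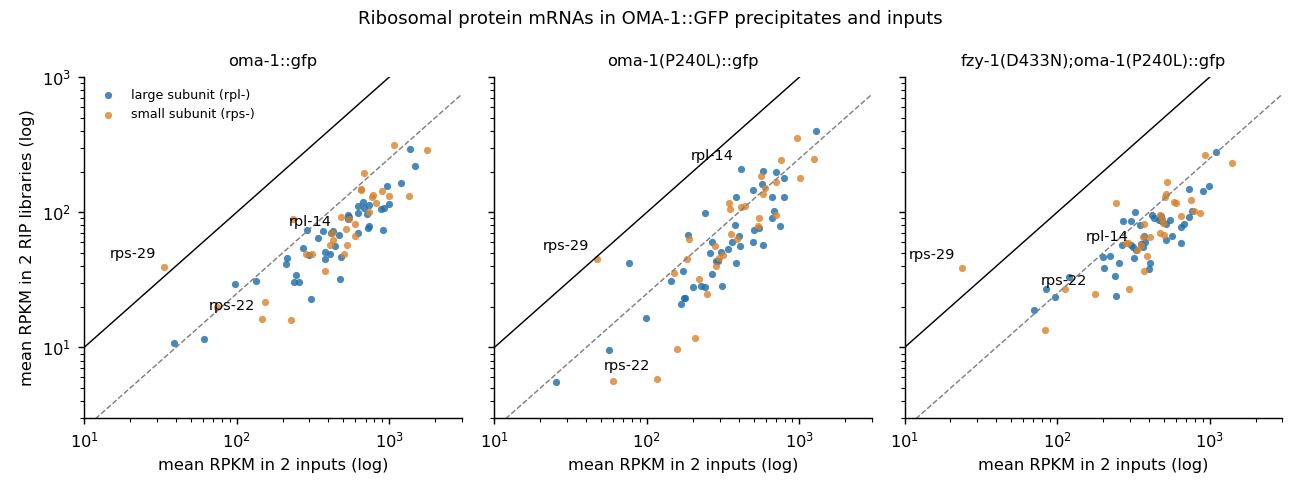
Mean RPKM of each ribosomal protein gene in the 2 input libraries (x axis, log scale) and the 2 RIP libraries (y axis, log scale) of each tagged strain. The solid line marks equal levels and the dashed line RIP levels 4-fold under input; nearly all genes lie near or under the dashed line in each strain, and rps-29 lies close to the solid line.

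The extent of the depletion varied between members. In oma-1::gfp the strongest was at rpl-27, a protein of the large subunit, whose inputs read 507.3 and 445.0 RPKM and whose RIP libraries read 33.3 and 31.2 RPKM. This was a log2 ratio of −3.84 (SE 0.280, limma adjusted p = 9.4e-05), or 14.3-fold lower in the precipitate. The next were rps-8, a protein of the small subunit, at a log2 ratio of −3.77 and rpl-9, of the large subunit, at −3.67. The weakest among those called was rps-2, a protein of the small subunit near the mRNA entry, whose inputs read 228.9 and 241.9 RPKM and whose RIP libraries read 98.8 and 78.5 RPKM. Its log2 ratio was −1.41 (SE 0.291, limma adjusted p = 0.00635), and in 2 of the 4 fits that left out 1 library its adjusted p was over 0.05, up to 0.0965. Across the 75 members tested in all 3 strains, the log2 ratios of oma-1::gfp and the fzy-1 P240L strain had a Spearman rho of 0.93, those of oma-1::gfp and the P240L strain 0.64, and those of the 2 strains with P240L 0.56, which is a description over genes that share libraries. Neither coding length nor 3′UTR length ordered the members, with rho between −0.19 and 0.19 in the 3 strains, and the input level gave rho of −0.25, 0.15 and −0.35.

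One member tested in every strain was not lower in the RIP libraries. rps-29 encodes a small zinc-binding protein of the small subunit and lies at chrIII:794300-795031 on the plus strand, where 2 snoRNA genes overlap it outside its exons. In oma-1::gfp its inputs read 27.6 and 38.9 RPKM and its RIP libraries 45.4 and 33.7 RPKM, so that the groups overlapped. In the P240L strain the inputs read 56.4 and 37.4 RPKM and the RIP libraries 47.3 and 42.7 RPKM, again with overlap. In the fzy-1 P240L strain the inputs read 21.3 and 26.6 RPKM and the RIP libraries 41.3 and 35.8 RPKM, and here both RIP libraries were above both inputs. The log2 ratios were 0.25 (SE 0.294, limma adjusted p = 0.522), −0.03 (SE 0.192, limma adjusted p = 0.902) and 0.67 (SE 0.279, limma adjusted p = 0.0816), and the last had an adjusted p under 0.05 in 4 of 8 other settings and in none of 4 that left out a library. rps-29 was also the member with the lowest input level above 0, at 33.3 RPKM in oma-1::gfp. In N2 embryos its level per length was 542 and 737 RPKM, above rpl-11.1, the lower gene of its pair there, at 115 and 108 RPKM. Whether the annotation or counting of rps-29 differs between the adult and embryo values was not tested, and its adult values are uncertain to that extent.

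**Figure D2:**
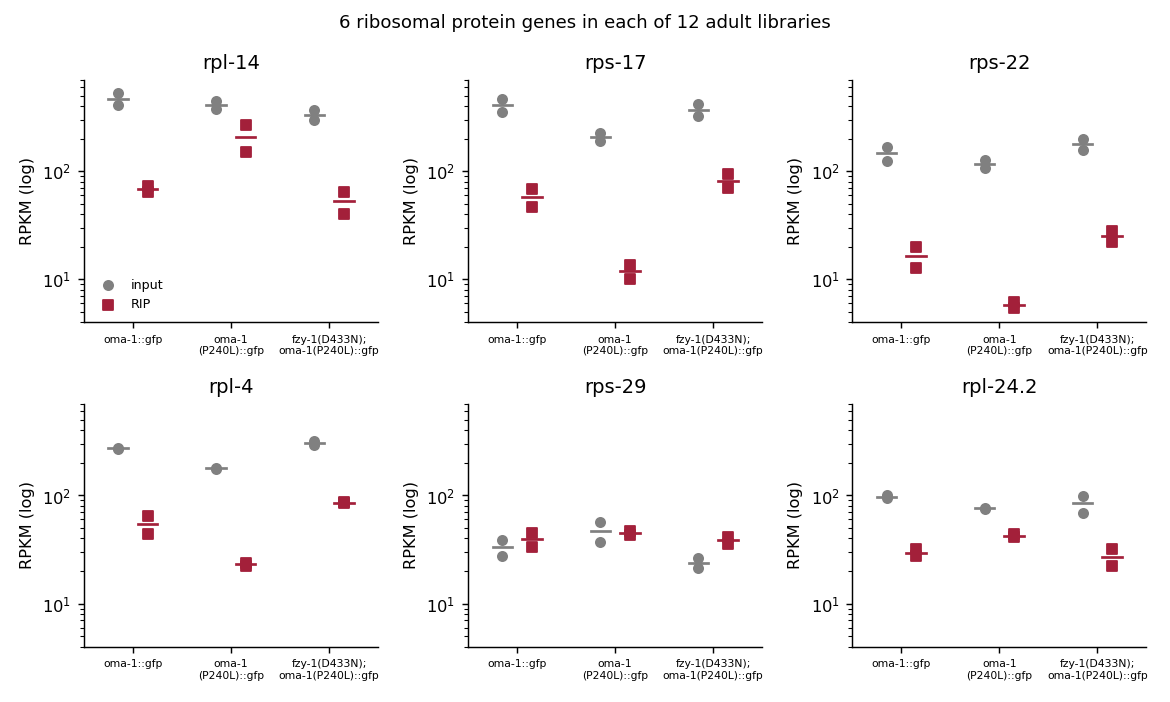
RPKM (log scale) of 6 ribosomal protein genes in every input library (grey circles) and RIP library (red squares) of the 3 tagged strains, with bars at the mean of 2 libraries. The RIP libraries lie under the inputs everywhere except at rps-29, and at rpl-14 the P240L RIP libraries, at 268.4 and 148.7 RPKM, lie above those of the other strains.

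The members not tested in every strain were rpl-41.1 and rpl-41.2, copies of the gene for the smallest ribosomal protein, which are listed at 0 in all 12 adult libraries, and rpl-42. In the embryos rpl-41.2 stood at 1461 RPKM in A1, so that the value of 0 in the adult files cannot be read as absence of the mRNA. The values of rpl-42 were near or at 0 in all adult libraries, and it passed the filter only in the fzy-1 P240L strain, with a log2 ratio of 0.08 (limma adjusted p = 0.897).

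Whether the depletion differed between strains was tested as a difference of log2 ratios in a limma fit of all 12 libraries, over 11736 genes. The first difference, the P240L strain against oma-1::gfp, had a median of 0.26 over the members and −0.03 over all genes. The second, the fzy-1 P240L strain against the P240L strain, had medians of −0.05 and −0.03. The 2 differences share the P240L libraries, so a gene that moves one way in the first tends to move the other way in the second. In the first, 1 member was called higher, where 1.27% of all genes were, and 0 were called lower, where 3.87% were. An unadjusted p under 0.05 was found for 12 of 76 members and for 2432 of the 11736 genes. In the second, 3 were called higher, where 5.96% of all genes were, and 1 was called lower, where 3.74% were. Here 9 of 76 members and 3089 of the 11736 genes had an unadjusted p under 0.05. All these shares of the members were near or under those over all genes, and the called members are described one by one.

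rpl-14, a protein of the large subunit, was less depleted with OMA-1(P240L). Its oma-1::gfp inputs read 525.1 and 410.7 RPKM and its RIP libraries 72.1 and 64.4 RPKM. With the P240L strain the inputs read 446.0 and 378.0 RPKM and the RIP libraries 268.4 and 148.7 RPKM. In the fzy-1 P240L strain the inputs read 367.3 and 294.0 RPKM and the RIP libraries 64.6 and 40.5 RPKM. The RIP libraries of the P240L strain were thus the highest, without overlap with those of the other strains, although they still lay under their inputs, and they differed from each other more than those of the other strains. The difference of log2 ratios was 1.72 (SE 0.438, limma adjusted p = 0.0451) against oma-1::gfp, and −1.62 (SE 0.438, limma adjusted p = 0.0386) in the fzy-1 P240L strain against the P240L strain. When single libraries were left out, the first kept an adjusted p under 0.05 in 1 of 8 fits (0.0233 to 0.180 by limma) and the second in 2 of 8 (0.0219 to 0.149). rpl-14 shares 3 exon bases with C04F12.5 on the opposite strand.

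rps-17, a protein of the small subunit, went the other way. In oma-1::gfp its inputs read 466.7 and 350.4 RPKM and its RIP libraries 68.8 and 46.7 RPKM. In the P240L strain the inputs read 224.5 and 189.2 RPKM, under those of the other strains, and the RIP libraries 13.6 and 10.1 RPKM. In the fzy-1 P240L strain the inputs read 415.6 and 326.4 RPKM and the RIP libraries 93.4 and 70.3 RPKM. Both values of the P240L strain were the lowest of their kind, the RIP libraries by the larger ratio. The log2 ratio was −2.81 in oma-1::gfp, −4.03 in the P240L strain and −2.17 in the fzy-1 P240L strain. The difference between the 2 strains with P240L was 1.86 (SE 0.378, limma adjusted p = 0.0119) and lost its call in 1 of 8 fits, without the first input library of the P240L strain (adjusted p = 0.0654 in limma). The difference between the P240L strain and oma-1::gfp was −1.22 (SE 0.378, limma adjusted p = 0.0877) and was not called, although it had an adjusted p under 0.05 in 2 of 6 other settings.

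Further members of both subunits showed smaller differences of the same sign as rps-17. rps-22, a protein of the small subunit at chrIII:1950535-1951425 on the plus strand, read 5.4 and 6.2 RPKM in the P240L RIP libraries, 19.8 and 12.7 RPKM in those of oma-1::gfp and 27.7 and 22.2 RPKM in those of the fzy-1 P240L strain. Its inputs ran from 106.0 to 196.3 RPKM over the 3 strains, and those of oma-1::gfp overlapped those of both other strains. The P240L inputs, with a mean of 116.7 RPKM, lay under those of the fzy-1 P240L strain, with a mean of 176.9 RPKM, without overlap. The P240L RIP libraries were the lowest. Between the 2 strains with P240L its log2 ratio differed by 1.33 (SE 0.352, limma adjusted p = 0.0364), a call kept in 1 of 8 fits without a library. rpl-4, a large-subunit protein whose extension lines the exit tunnel, read 22.4 and 23.8 RPKM in the P240L RIP libraries and 84.4 and 87.2 RPKM in those of the fzy-1 P240L strain, with inputs of 180.8 and 175.0 RPKM against 290.4 and 321.2 RPKM. Its difference was 1.07 (SE 0.295, limma adjusted p = 0.0421), and it was lost in all 8 fits without a library; rpl-4 is named because it passed the test, after its value was seen. Of the other members at the ends of the order, rps-20, at −1.31 and 1.20, and rps-21, at 1.25 and −1.05, did not pass the test in either difference.

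Other proteins of the ribosome whose symbols the rule does not cover were depleted as well. These are rla-0, rla-1 and rla-2 of the stalk, ubl-1 and ubq-2, which encode ubiquitin or a ubiquitin-like domain fused to a ribosomal protein, and rack-1, a scaffold on the small subunit. In limma, 5 of these 6 were lower in oma-1::gfp, 6 of 6 in the P240L strain and 5 of 6 in the fzy-1 P240L strain, with log2 ratios in oma-1::gfp of −1.70 for rla-0, −2.61 for rla-1, −2.76 for ubl-1, −2.37 for ubq-2 and −1.73 for rack-1. The exception was rla-2, at −0.38 in oma-1::gfp (limma adjusted p = 0.349) and −0.15 in the fzy-1 P240L strain (limma adjusted p = 0.743), while in the P240L strain it fell by 1.18 on the log2 scale.

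In the other lists of translation genes the medians were also below 0, closer to the medians over all genes of −0.37, −0.34 and −0.41 in the 3 strains, where 27.7%, 39.0% and 28.2% of genes were called lower. No list was tested against the other genes. In oma-1::gfp the median log2 ratio was −1.07 over 13 elongation and termination factors, of which 7 were called lower and 0 higher by limma, and −0.71 over 34 initiation factors, with 15 lower and 1 higher. It was −1.01 over 31 ribosome biogenesis genes, with 21 lower and 0 higher, and −0.81 over 7 genes of RNA polymerase I and its regulators, with 4 lower and 0 higher. In the P240L strain the medians in the same order were −1.17, −0.60, −0.78 and −0.80, with 9, 20, 23 and 5 called lower and 0, 3, 0 and 0 called higher. In the fzy-1 P240L strain they were −1.05, −0.55, −1.01 and −0.76, with 7, 13, 20 and 3 lower and 0, 3, 0 and 0 higher, so that the 13 of 35 initiation factors lower there are not far from the 28.2% of all genes. Each of these medians lay above that of the ribosomal protein genes, and the lowest gene of these lists in oma-1::gfp was eef-1A.1, the main elongation factor that brings tRNA to the ribosome, at −3.03. Against these, 8 mRNAs known to be bound by OMA-1 had a median of 0.59, 0.52 and 0.47 in the 3 strains, with 4 called higher in each and 1, 0 and 1 called lower. Among those, rnp-1 stood at 2.32, cdc-25.3 at 1.94 and zif-1 at 1.68 in oma-1::gfp.

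The markers of several tissues are given beside these values, and against the same 27.7%, 39.0% and 28.2% of all genes called lower. The summed RPKM of 12 oocyte and germline markers was 3291 to 4458 in the 6 inputs and 4464 to 5567 in the 6 RIP libraries, and their median log2 ratio was 0.40, 0.17 and 0.49 in the 3 strains, with 4, 5 and 4 called higher and 1, 3 and 0 lower. The summed RPKM of 12 intestinal markers was 1794 to 2620 in the inputs and 463 to 1529 in the RIP libraries, with medians of −1.36, −1.91 and −1.55 and 8 of 10, 11 of 11 and 8 of 11 tested markers lower. The medians of muscle markers were −0.42, −1.17 and −0.36, with 2 of 11, 9 of 10 and 3 of 11 lower and 1 higher in each, those of epidermal markers −0.43, −1.02 and −0.28, with 2 of 8, 7 of 8 and 0 of 9 lower and 1, 0 and 1 higher, and those of neuronal markers −0.998, −1.03 and −0.52, with 4 of 7, 4 of 7 and 3 of 9 lower and 1 higher in each. Sperm markers were tested for 3, 6 and 8 genes, with medians of −0.60, −1.07 and −2.34 with 1, 5 and 6 lower and 1, 0 and 1 higher. The summed RPKM of the 12 sperm markers was 8.80 and 6.37 in the oma-1::gfp inputs and 44.7 and 42.0 in the P240L inputs. In the fzy-1 P240L inputs it was 397 and 206, so that the inputs differed between strains in this RNA. Its part in the differences between strains was not tested. The shares of the muscle and epidermal markers in oma-1::gfp and the fzy-1 P240L strain were under those of all genes. At −2.50 to −2.69 the median of the ribosomal protein genes was under that of every marker list in each strain. The inputs hold RNA of the whole animal, and the part that RNA of tissues without OMA-1 has in the depletion of ribosomal protein mRNAs was not tested.

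In early embryos the oma-1(zu405) allele went with higher levels of the same genes. The members took 3.44% and 3.66% of all counts in N2 and 8.38% and 8.26% in oma-1(zu405). Of the 78 genes, 77 passed the filter of 10 counts in 2 libraries, the exception being rpl-42 with 0 or 1 count in every library. All 77 were called higher in oma-1(zu405) at an adjusted p under 0.05 in edgeR's quasi-likelihood test, where 34.8% of the 12520 genes tested were called higher and 42.4% lower, and 63 were past a log2 fold change of 2, where 11.6% were. Their median log2 fold change was 2.38, from 1.44 to 3.48, against −0.24 over all genes. Both oma-1(zu405) libraries lay above both N2 libraries for all 77, as they did for 40.5% of all genes, and 56 of the 77 fell in the highest 10% of all genes, above 2.16. The rpl- genes had a median of 2.39, with 38 of 46 past 2, and the rps- genes one of 2.38, with 25 of 31 past 2. In bulk samples, a different number of cells and a different amount of RNA per cell cannot be told apart.

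The size of this difference depended on the scaling between libraries, its direction less so. With total counts in place of TMM factors the median over all genes moved to −1.51 and that of the members to 1.13, so that 74 were still called higher, where 15.6% of all genes were, and 4 were past 2, where 2.43% of all genes were. In a single edgeR fit of all 6 embryo libraries, the spread between D1 and D3 enters the error. There 0 members were called, as were 0 of the 12885 genes tested, although the median of the members was 2.47. An unadjusted p under 0.05 in that fit was found for 11 members and for 5414 of all genes. DESeq2 on the 4 libraries called all 77 higher, where 4032 of 12520 genes were, with 64 past 2, where 1445 of all genes were.

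Among single genes, rps-5, a protein of the small subunit, stood at 295.0 and 343.7 CPM (counts scaled to library size with TMM factors) in N2 and at 3834.9 and 3739.8 CPM in oma-1(zu405), the largest change, with a log2 fold change of 3.48 (SE 0.175, edgeR adjusted p = 1.32e-16). rpl-12, a protein at the base of the stalk, went from 290.0 and 334.1 CPM to 3385.7 and 3955.7 CPM, a log2 fold change of 3.46, and rps-28, of the small subunit, from 58.8 and 94.8 CPM to 775.5 and 955.3 CPM, one of 3.41. In each of these the mutant libraries lay near each other and far above those of N2. The smallest change was that of rpl-3, a protein close to the catalytic centre, from 613.2 and 615.7 CPM to 1658.1 and 1887.5 CPM, a log2 fold change of 1.44 (SE 0.151, edgeR adjusted p = 9.87e-10). rpl-6 and rpl-27, both of the large subunit, followed at 1.49 and 1.53. Thus even the members at the low end did not overlap between genotypes. rps-29, which was not depleted in the adult precipitates, rose with the others, from 83.0 and 111.9 CPM to 922.8 and 977.9 CPM, at a log2 fold change of 3.20.

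**Figure D3:**
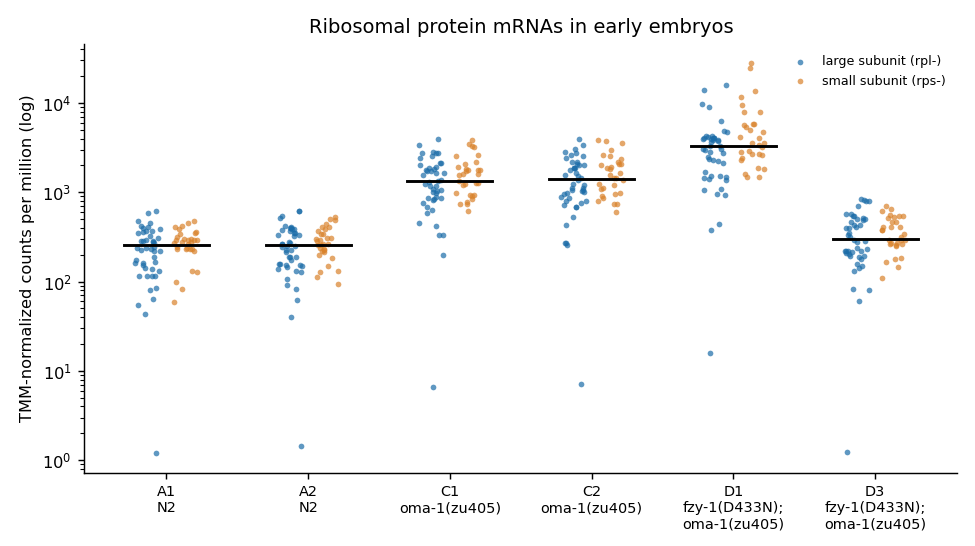
TMM-normalized CPM (log scale) of each ribosomal protein gene in the 6 embryo libraries, 1 point per gene, with a black bar at the median of each library. The medians are 254 and 257 in N2 (A1, A2), 1352 and 1415 in oma-1(zu405) (C1, C2), and 3284 and 303 in the double mutant (D1, D3), which lie far apart.

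The libraries of the double mutant lay far apart. Against N2 both were higher by the median, by different amounts, and against oma-1(zu405) D1 was higher and D3 lower. Their median level over the members was 3284 CPM in D1 and 303 CPM in D3, against 254 and 257 CPM in N2 and 1352 and 1415 CPM for oma-1(zu405), so that D1 lay above all other libraries and D3 just above N2. The log2 ratio of D1 to D3 had a median of 3.27, from 0.69 to 5.69, and 76 of the 78 members were over 1, where 24.3% of all genes were, while the libraries of N2 and of oma-1(zu405) differed from each other by medians of −0.06 and −0.02, with 0 members over 1. Relative to the mean of N2, D3 was within 1 on the log2 scale for all 77 members tested, from −0.20 at rpl-14 to 0.90 at rps-2, with a median of 0.42, and 94.9% of the 12843 genes compared were within 1 as well. D1 was above 1 for all 77, from 1.31 at rpl-3 to 6.39 at rps-2, with a median of 3.58, where 25.4% of all genes were above 1. In D1 the members took 15.7% of all counts, and in D3 4.27%.

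With both libraries, edgeR called 0 members in the double mutant against N2, where 0.00% of the 12684 genes tested were called, and 0 had an unadjusted p under 0.05, while DESeq2 called 18 higher, where 2.73% of all genes were. The median log2 fold change was 2.67, from 0.88 to 5.35, and for 64 members both D1 and D3 were above both N2 libraries, as they were for 23.6% of all genes. Against oma-1(zu405) edgeR called 0 of the members, where 0.00% of 10477 genes were called, with 0 at an unadjusted p under 0.05 and 0 called by DESeq2, and the median was 0.50. These fits pool the spread between D1 and D3. Taken with D3 alone, the median against N2 was 0.42, with 49 members called higher, where 14.1% of all genes were, and 0 past 2, where 0.714% were. Against oma-1(zu405) D3 alone had a median of −1.87, with all 77 called lower, where 32.4% of all genes were, and 30 past −2, where 8.17% were. Taken with D1 alone, the median was 3.55 against N2, with 77 called higher, where 30.2% of all genes were, and 75 past 2, where 15.2% were, and 1.46 against oma-1(zu405), with 76 higher, where 31.0% were, and 14 past 2, where 11.6% were. In these fits the single library is assumed to vary like those of the other genotype. Which of D1 and D3 stands for the double mutant cannot be told apart from these data.

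The members highest in D1 were far lower in D3. rps-9, a small-subunit protein that takes part in decoding accuracy, stood at 27767 CPM in D1 and at 536.0 CPM in D3, and rps-2 at 24621 and 547.1 CPM. rpl-10, which joins the large subunit late in its assembly, stood at 15915 and 566.4 CPM, and rpl-41.2 at 14170 and 412.0 CPM. rpl-3, which had the smallest ratio of D1 to N2, stood at 1522.3 CPM in D1 and 814.2 CPM in D3. rRNA and the most abundant genes also took larger shares of D1, as given above, and their part in these levels was not tested.

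Markers of some cell types differed between N2 and oma-1(zu405), where 34.8% of all genes were called higher and 42.4% lower. The summed level of 12 oocyte and germline markers was 733 and 746 CPM in N2, 7817 and 8246 CPM with oma-1(zu405), and 3522 CPM (D1) and 1022 CPM (D3), with none of the 12 at 0 in any library, and all 12 were called higher in oma-1(zu405) by edgeR, at a median log2 fold change of 3.28 and with cpg-2, cpg-1 and puf-5 at 5.51, 4.86 and 4.78. The 8 known OMA-1 targets were all called higher, with a median of 1.56. Of 12 muscle markers 9 were called lower and 1 higher, with a median of −1.07. Their summed level was 1499 and 1623 CPM in N2 against 849 and 933 CPM with oma-1(zu405), and 512 CPM (D1) and 1187 CPM (D3). Of 12 neuronal markers 10 were called lower and 1 higher, with a median of −2.52 and unc-13 at −5.73. Their summed level was nevertheless higher in oma-1(zu405), at 751 and 656 CPM against 419 and 376 CPM. Intestinal and epidermal markers were tested for 6 genes each, with medians of −0.55 and −0.41. In each, 3 were lower and 1 higher, so that the share lower was not far from that of all genes. Sperm markers were tested for 2, with a median of −1.99 and 1 lower, and 6 to 11 of the 12 sperm markers were at 0 in each library. The stage of the embryos in each library was not measured, and its part in the levels of ribosomal protein mRNAs was not tested.

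The other lists of translation genes differed in how many of their genes rose in oma-1(zu405), where 34.8% of all genes were called higher and 42.4% lower. All 6 ribosomal proteins outside the rule were called higher by edgeR, at a median log2 fold change of 2.83, from 1.90 at ubl-1 to 3.16 at rla-2. Of 13 elongation and termination factors 9 were called higher and 1 lower, with a median of 2.09, and of 35 initiation factors 28 and 3, with a median of 1.70. Ribosome biogenesis genes had a median of 0.39, with 16 of 32 higher and 9 lower, and the 7 genes of RNA polymerase I and its regulators one of 0.15, with 3 higher and 1 lower, so that the shares called higher in these last lists lie nearer that of all genes. Every tested gene was called higher in 4 lists, the members, the other ribosomal proteins, the oocyte markers and the known OMA-1 targets.

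Genes that encode the same protein in copies differed in their level between adults and embryos. The values of near-identical copies depend on how shared reads were assigned and are uncertain to that extent, and adult and embryo RPKM come from separately made tables, so that only the ratio within a library is compared. rpl-11.1, at chrV:3585312-3586064, and rpl-11.2, at chrX:2241738-2242618, both on the minus strand, encode the protein that binds the small rRNA of the large subunit. In the 6 adult inputs rpl-11.1 was 4.11 to 14.7 times rpl-11.2 in RPKM, and in the 6 embryo libraries rpl-11.2 was 7.19 to 14.8 times rpl-11.1. In A1, for example, rpl-11.1 stood at 115 RPKM and rpl-11.2 at 981 RPKM, while the first oma-1::gfp input held 827 and 56.1 RPKM. The order of the copies was thus opposite in the adult and embryo values, without overlap of the ratios. A ratio within a library does not remove a difference in annotation or counting of a single gene between these values, which was not tested. The published classes put rpl-11.1 among germline-enriched genes and rpl-11.2 among soma-enriched and spermatogenic ones.

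The other pairs did not exchange their order in this way. rpl-25.2 and rpl-25.1 encode a protein at the tunnel exit, and rpl-25.2 was 3.71 to 11.4 times the X-linked rpl-25.1 in the adult inputs but 0.845 to 2.22 times in embryos, where they were near each other. rpl-24.1 was 3.74 to 5.27 times rpl-24.2 in the inputs and 4.17 to 10.2 times in embryos. rpl-41.2 was 3.07 to 5.55 times rpl-41.1 in the embryos. In D1 the ratio was the highest of the embryo libraries for rpl-24.1 over rpl-24.2 and for rpl-25.2 over rpl-25.1.

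**Figure D4:**
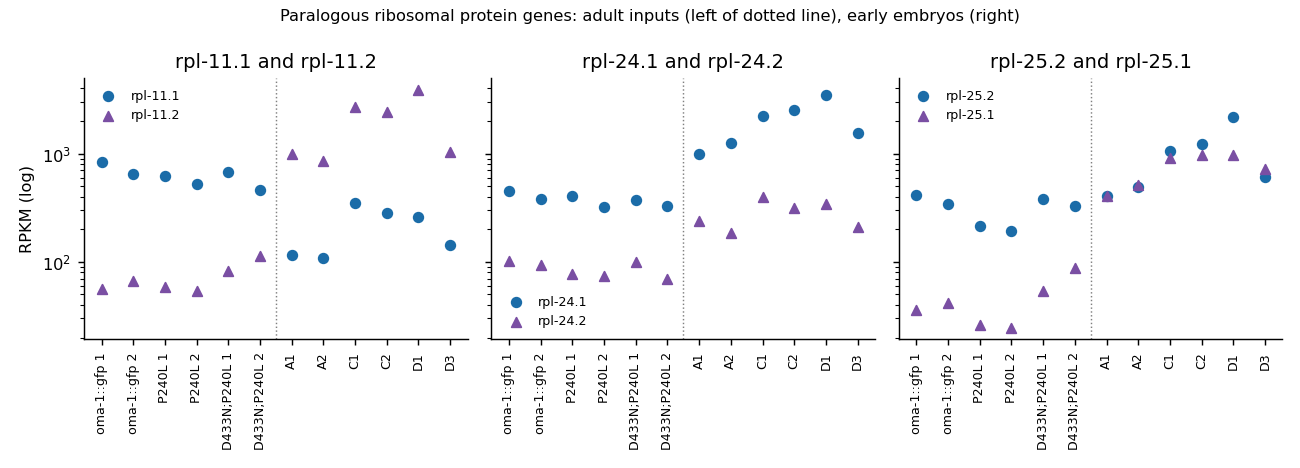
RPKM (log scale) of the genes of each pair by symbol in the 6 adult inputs, left of the dotted line, and the 6 embryo libraries, right of it. rpl-11.1 lies above rpl-11.2 in every input and below it in every embryo library.

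Both genes of each pair that could be tested were depleted in the precipitates. The log2 ratios of rpl-11.1 were −3.18, −3.31 and −3.05 in oma-1::gfp, the P240L strain and the fzy-1 P240L strain, and those of rpl-11.2 were −2.36, −2.45 and −2.02. rpl-25.2 had −3.06, −2.83 and −2.61, and rpl-25.1 had −1.80, −2.14 and −1.82. rpl-24.1 had −2.55, −2.57 and −2.12, and rpl-24.2 had −1.69, −0.83 and −1.60, the weakest after rps-29 in the P240L strain, where its inputs read 77.1 and 74.7 RPKM and its RIP libraries 43.6 and 41.1 RPKM. The gene with the lower adult input had the smaller depletion in all 3 pairs and all 3 strains, which was not tested as a difference. rpl-24.2 lies wholly within C03D6.1 on the opposite strand, and without strand information their reads cannot be told apart. In embryos both genes of each pair rose in oma-1(zu405): rpl-11.1 by a log2 fold change of 2.78 and rpl-11.2 by 2.73, rpl-24.1 by 2.32 and rpl-24.2 by 2.00, rpl-25.1 by 2.28 and rpl-25.2 by 2.59, and rpl-41.1 by 2.49 and rpl-41.2 by 3.26.

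A few symbols look like pairs but name different proteins. rpl-7 and rpl-7A had log2 ratios of −2.91 and −2.34 in oma-1::gfp, and rpl-36 and rpl-36.A had −2.75 and −3.60, all called lower by limma. rpl-37, at chrIII:3528642-3528917 on the plus strand, had few counts in the embryos although it was abundant in the adult inputs. It has no intron and no annotated UTR, lies within pitp-1 on the opposite strand, and held 39 and 15 counts in N2, 81 and 19 counts with oma-1(zu405), and 26 (D1) and 13 (D3) counts for both mutations. In the adult inputs it stood at 697 to 1363 RPKM and was depleted in the precipitates of oma-1::gfp at a log2 ratio of −2.85. The annotation and the counting of this gene may differ between the files, which was not tested, and its embryo fold change of 2.33 (SE 0.381, edgeR adjusted p = 3.01e-06) rests on these few counts.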

How the data were processed

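The authors aligned reads to the worm genome and counted them per gene, with CASAVA 1.4, HISAT2 2.0.5 and HTSeq 0.6.0 named in the submitters' processing notes. The genome build is not given in the sources used here, and coordinates and symbols are those of WBcel235, matched by gene ID. For embryos the authors deposited whole read counts, and 2 of the 3 labelled samples per genotype had a column here. For RIP and input the authors deposited RPKM values on a scale 1000 times larger, which were divided by 1000. Published gene classes were read from 1 table, while the authors' own fold changes and p-values in the tables, and a further 32 per-sample value columns, were left out.

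Counts were tested with edgeR 4.0.16 (TMM, quasi-likelihood) in R 4.3.3, per pair of genotypes, for genes with at least 10 counts in 2 libraries, with Benjamini-Hochberg adjustment over all genes tested. A gene was called at an adjusted p under 0.05 and was past the fold beyond 2 on the log2 scale. RPKM were tested with limma 3.58.1 with an intensity trend on log2(RPKM + 1), for genes with at least 1 RPKM in 2 libraries, with a log2 ratio of 1 as the fold threshold. Fold changes on this scale understate those of low genes. DESeq2 1.42.0 was an alternative for counts, beside other scalings, filters and pseudocounts and the removal of each library. Code was tested on simulated data. Embryo RPKM were computed from counts and annotated exon length. Depth of the RIP libraries was estimated from the steps between low RPKM values and is rough, since 32.2% to 36.1% of low values came out within 0.05 of whole reads. Tables and figures used Python 3.11.15, pandas 2.3.3, numpy 2.4.6, scipy 1.17.1 and matplotlib 3.10.9. With 2 libraries a group, the precision is that of these fits, and intervals cover these libraries only.

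The members and lists (other ribosomal proteins, elongation, initiation, biogenesis, RNA polymerase I, known OMA-1 targets, and markers of oocytes, sperm, intestine, muscle, epidermis and neurons) were chosen with earlier results of these data known. Named members are paralogs by symbol, the 3 at each end of a comparison and of the oma-1::gfp inputs, members that failed a filter and, after their values were seen, rpl-4, and values that a figure or a strain comparison turns on. RIP replicate numbers were checked for pairing: deviations of libraries with the same number correlated at 0.0816, 0.0391 and 0.288 in the 3 strains, so that the numbers were not taken as pairs.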

Additional observations from a re-analysis of the deposited data

Results flagged for a closer look

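Some differences between strains in RIP enrichment passed the test of the difference itself in limma, in shares of the 76 members near or under those over all genes. In the P240L strain against oma-1::gfp 1 member was higher and 0 lower, where 1.27% and 3.87% of all genes were. In the fzy-1 P240L strain against the P240L strain 3 were higher and 1 lower, where 5.96% and 3.74% were. rpl-14 differed by 1.72 on the log2 scale between the P240L strain and oma-1::gfp, and by −1.62 between the fzy-1 P240L strain and the P240L strain. Between the same P240L strains rps-17 differed by 1.86, rps-22 by 1.33 and rpl-4 by 1.07. Except for rps-17, these calls were lost in most fits that left out a library, as given above. All of these differences use the libraries of the P240L strain, and their causes were not tested.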

How the results depend on the processing

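Of the values of single genes under other settings, 787 of 892 kept their direction and their side of the threshold, 80 fell below it, 15 rose past it and 10 reversed. Without D1, the double mutant against oma-1(zu405) turned to −1.96 at rps-2, −2.46 at rps-9 and −1.82 at rpl-41.1, against 3.55, 3.26 and 3.11 without D3, and against N2 rpl-36.A turned to −0.02, against 2.21 without D3. With total counts rpl-3 turned to −0.13 in the double mutant against N2. rps-29 in the P240L strain, at −0.03, gave −0.32 to 0.26 without single libraries, 0.31 with the median ratio set to 0, 0.11 with quantile normalization and 0.21 with equal reads on listed genes. In the comparisons of RIP with input, members past the fold threshold numbered 72 to 74, 71 to 73 and 67 to 73 in oma-1::gfp, the P240L strain and the fzy-1 P240L strain when single libraries were left out. With the median log2 ratio of all genes set to 0, the median of the members was −2.32, −2.17 and −2.10, and with quantile normalization that of the P240L strain was −2.22. For the P240L strain against oma-1::gfp, leaving out a library gave 0 to 1 members higher and 0 to 1 lower, and quantile normalization 1 lower. For the fzy-1 P240L strain against the P240L strain, it gave 0 to 2 higher and 0 to 1 lower, a pseudocount of 10 RPKM gave 1 higher, and a scaling to equal reads on listed genes, chosen after seeing the data, 1 higher. In embryos, for the zu405 single mutant against N2, leaving out a library gave medians of 2.19 to 2.44 and 54 to 67 members past the threshold. A filter on 3 libraries gave a median of 2.24, no filter 2.47, and total counts 1.13 with 4 past the threshold. A single fit of all 6 libraries gave 2.47 with 0 called, as over all genes. For the double mutant against N2, DESeq2 called 18 higher, and leaving out a library gave 0 to 75, the last without D3. Against oma-1(zu405) it gave 0 to 30 lower, the last without D1, and 0 to 14 higher, the last without D3.

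With a replicate block on the RIP numbers, which share only a number, the comparisons with input gave 74, 73 and 74 members, as without it. The difference between the P240L strain and oma-1::gfp had 1 higher and 1 lower, and that between the 2 strains with P240L 2 higher and 2 lower. In the embryos, a replicate block on the number in the column names of oma-1(zu405) and N2, which the labels do not tie to repeats and which was added after seeing the data, gave 62 members past the threshold against 63 without it, and a median of 2.38 in both; deviations of libraries with the same number had r = 0.11 over 12520 genes. No such block was possible for the double mutant, because D1 and D3 share only 1 number with the other genotypes.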
